A study of Mus musculus with 10 samples.

Results

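OTX2 binding was examined at 10 genes of the bone morphogenetic protein (BMP) pathway: the ligand genes Bmp2, Bmp4 and Bmp7, the antagonist genes Chrd and Nog, the inhibitor genes Bambi and Smad6, and the target genes Id1, Id2 and Id3. The genes were chosen by name, with earlier results of these data known. Their peaks were those naming a member as nearest gene in the authors' deposited tables, plus those whose centre lay inside the gene or within 50 kb of either end on the mouse build mm10. By this rule the 10 genes, of 21887 protein-coding genes on the nuclear chromosomes, held 9 of the 6319 peaks in epiblast stem cells (EpiSC) and 77 of the 42711 peaks in definitive endoderm (DE). Of the 77 DE peaks, 74 lay within 50 kb. The other 3 were farther away and had been assigned to Id2 or Bambi by the authors. Counts below refer to the 50 kb window unless the nearest gene is named.

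The measurement was CUT&RUN, in which an antibody directs a nuclease to its target so that the DNA around the bound protein is cut free and sequenced. The antibody recognised an HA epitope on OTX2 in the mouse line 7H OTX2-dTAG-EGFP, a BL6/129 hybrid, with 500000 cells per sample. The EpiSC medium was N2B27 supplemented with Activin A (20 ng/ml), FGF2 (12.5 ng/ml) and NVP (175 nM). To obtain DE, EpiSCs spent 16 h in CDM containing Activin A (40 ng/ml) plus CHIR (3 µM). They then spent 24 h with Activin A at 100 ng/ml together with LDN (100 nM), an inhibitor of BMP receptors, and live cells were sorted. The 2 HA samples of each state had been combined into 1 peak list, so no value for a state has a replicate spread and none of the differences could be tested. Controls were the IgG lists of 3 samples of the same EpiSC line and the HA list of 1 DE sample of the parental line, named 5.8. Cell state, medium, the BMP receptor inhibitor and the length of the list all differ between the states and cannot be told apart here. Read depth is unknown from these lists, and peaks alone do not check the identity of the cells.

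BMP ligands bind receptor kinases that activate receptor SMAD proteins, which enter the nucleus with SMAD4 and switch on target genes, among them the Id genes. Chordin and noggin bind the ligands outside the cell, BAMBI is a receptor-like protein without a kinase domain, and SMAD6 blocks the signal inside the cell, often as negative feedback. In the early mouse embryo BMP signalling favours posterior and mesodermal fates, whereas chordin and noggin from the node and its derivatives protect the anterior region. OTX2 is a homeodomain factor of the epiblast, the anterior endoderm and the head.

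Among the promoters that could be examined, that of Id3 was overlapped by a peak in both states, and those of Id2 and Smad6 in DE. Their sequences are shown because they are the places where OTX2 peaks met a promoter of the set. RefSeq promoter windows (build GRCm38.p6, the assembly behind mm10; 250 bases before to 50 after a transcript start) matched 5 of the 10 genes, namely Bmp4, Chrd, Smad6, Id2 and Id3. Of these 5 windows, 1 was overlapped by an EpiSC peak (6.33% of all 32851 windows in the table) and 3 by a DE peak (18.3% of all windows). The part before the annotated gene is printed 5′ to 3′ on the gene's strand, for Id3 at chr4:136143572-136143821 (plus strand) with the EpiSC peak in capitals, for Id2 at chr12:25096093-25096342 (minus strand) and for Smad6 at chr9:64022086-64022309 (minus strand) with the DE peak in capitals.
Id3: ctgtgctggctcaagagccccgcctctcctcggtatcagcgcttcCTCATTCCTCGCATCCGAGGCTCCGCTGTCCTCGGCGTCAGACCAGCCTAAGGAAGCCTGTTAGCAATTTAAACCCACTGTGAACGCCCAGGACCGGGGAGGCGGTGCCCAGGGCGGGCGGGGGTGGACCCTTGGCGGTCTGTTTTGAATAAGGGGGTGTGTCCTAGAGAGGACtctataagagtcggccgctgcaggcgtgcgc
Id2: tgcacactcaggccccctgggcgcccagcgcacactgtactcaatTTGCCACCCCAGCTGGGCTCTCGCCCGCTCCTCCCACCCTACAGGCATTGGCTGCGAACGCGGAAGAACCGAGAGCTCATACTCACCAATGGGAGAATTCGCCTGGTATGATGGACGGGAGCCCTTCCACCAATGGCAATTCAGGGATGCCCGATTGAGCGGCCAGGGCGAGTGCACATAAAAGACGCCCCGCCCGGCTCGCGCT
Smad6: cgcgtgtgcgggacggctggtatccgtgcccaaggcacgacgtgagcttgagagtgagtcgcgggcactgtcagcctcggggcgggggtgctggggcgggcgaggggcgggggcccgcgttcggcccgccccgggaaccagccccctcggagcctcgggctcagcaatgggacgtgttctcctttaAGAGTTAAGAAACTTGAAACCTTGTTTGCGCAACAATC

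At Id3 the capitals are the whole EpiSC peak of 174 bp, and the DE peak covered 206 of the 250 bases shown. At Id2 205 bases of the 211 bp DE peak lay before the gene, and at Smad6 38 bases of a 73 bp peak did. That Smad6 peak was narrower than any peak of the EpiSC list, where the minimum was 78 bp. GC content in the full windows was 60.0% at Id3, 63.3% at Id2 and 66.3% at Smad6. The median was 52.7% over all windows and 60.7% over the 6027 windows with a DE peak, so the 3 sites were close to or above the GC content of windows with a DE peak. The 38 capital bases at Smad6 differed from their surroundings, with a GC content of 36.8% against 66.5% for the 224 bases printed. The letters TAATCC, the core bound by OTX-type homeodomains, were in none of the 5 windows on either strand, and in 7.06% of all windows and 7.98% of those with a DE peak. TAATTA, a core of many homeodomains, was likewise in none of the 5, against 5.29% of all windows and 2.54% of those with a DE peak. GGCGCC, a sequence bound by SMAD proteins of the BMP branch, occurred at Id2 and Chrd, and in 11.9% of all windows and 19.1% of those with a DE peak. Neither match lay in a peak: that at Id2 is in lower case above, and the Chrd window had no peak in either state.

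All 10 genes had a DE peak within 50 kb, whereas 3 had an EpiSC peak: Id3, Chrd and Smad6. Over all protein-coding genes the corresponding shares were 82.8% in DE and 40.8% in EpiSC, so having a DE peak was common and 3 of 10 was near the EpiSC share. In EpiSC Id3 had 4 peaks, Chrd 3 and Smad6 2. In DE Smad6 had 14, Bmp7 13, Bmp2, Id1 and Id3 8 each, Chrd and Nog 7 each, Bambi 4, Id2 3 and Bmp4 2. No peak was counted for more than 1 gene of the set. Every gene had more peaks in DE than in EpiSC.

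**Figure D1:**
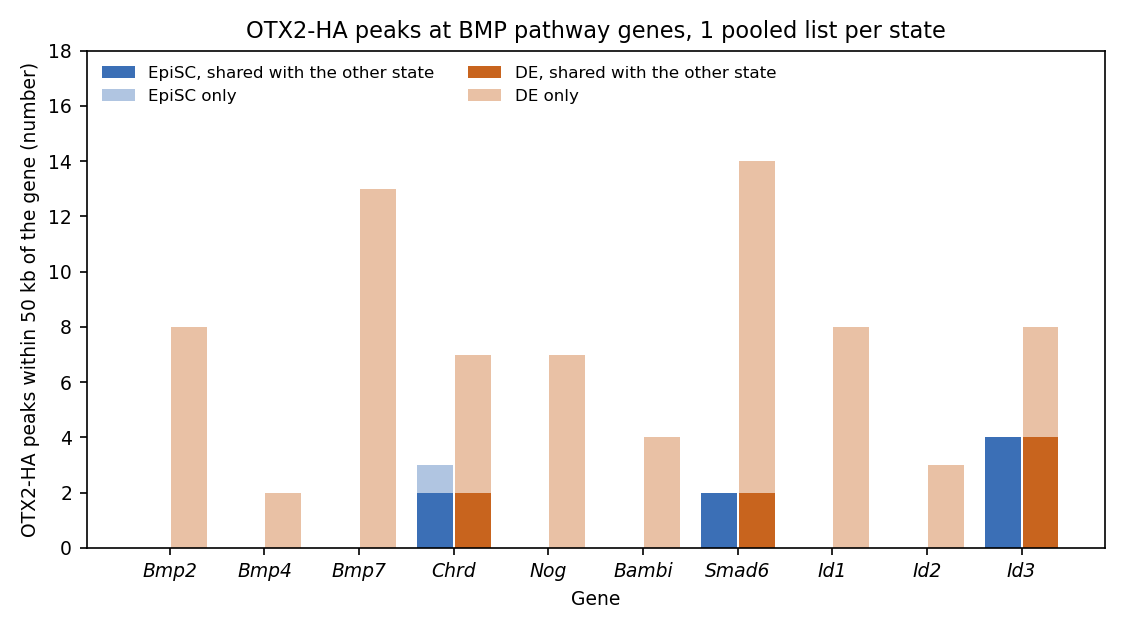
Number of OTX2-HA peaks (y axis) with the centre within 50 kb of each of the 10 genes (x axis), in EpiSC (blue) and DE (orange), with 1 pooled list per state and hence no error bars; dark parts are peaks that overlap a peak of the other state. Blue bars stand at Chrd, Smad6 and Id3, with 3, 2 and 4 peaks, and orange bars at all 10 genes, from 2 at Bmp4 to 14 at Smad6.

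The 10 genes had 74 DE and 9 EpiSC peaks in all, a ratio of 8.22 (95% exact interval 4.11 to 18.7, counting error only, with neighbouring peaks treated as independent). The whole lists differed by 6.76 times, and the mean number of peaks within 50 kb of a protein-coding gene by 4.51 times. All 10 genes had a DE peak and at least 2 times as many peaks in DE as in EpiSC, a rule met by 73.8% of protein-coding genes and by 89.2% of those with a DE peak. A DE peak with no EpiSC peak was found at 7 of the 10, against 42.3% of all protein-coding genes and 51.1% of those with a DE peak. The set's count on the first rule was thus close to the share among genes with a DE peak.

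With the DE list cut to its 6319 widest peaks, as many as the EpiSC list holds, 14 DE peaks were left at 5 of the 10 genes (34.8% of protein-coding genes had such a peak), and the ratio was 1.56 (0.627 to 4.07). The wide DE peaks lay at Bmp7 and Smad6 with 4 each, Bmp2 with 3, Nog with 2 and Id3 with 1. In this comparison Id3 had fewer DE than EpiSC peaks, 1 against 4, and Chrd had none against 3. This alternative shortens the DE list and selects on width at the same time, and the part of each was not tested.

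Read against all protein-coding genes, the density in DE was on the high side for most of the set. The median was 7.5 DE peaks for the 10 genes and 3 for all protein-coding genes (interquartile range 1 to 6), and 7 of the 10 exceeded the upper quartile, against 18.4% of protein-coding genes. A count at least as high as that of Smad6 was found at 1.53% of protein-coding genes, and as that of Bmp7 at 2.3%. Both genes are long, 69010 and 72310 bp, which widens their windows. Per 100 kb of window the count was 8.28 for Smad6 and 7.54 for Bmp7, but also 7.91 for the short Id1 and 7.88 for Id3, against a median of 2.23 over protein-coding genes. Bmp4 was at the low end of the set with 1.87. These counts include peaks that the authors assigned to neighbouring genes. Of the 74 DE peaks 41 named the member as nearest gene. They were 12 of 14 at Smad6 and 9 of 13 at Bmp7, but 2 of 8 at Id1 and 4 of 8 at Id3. In EpiSC the median was 0 for the 10 genes and for all protein-coding genes.

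**Figure D2:**
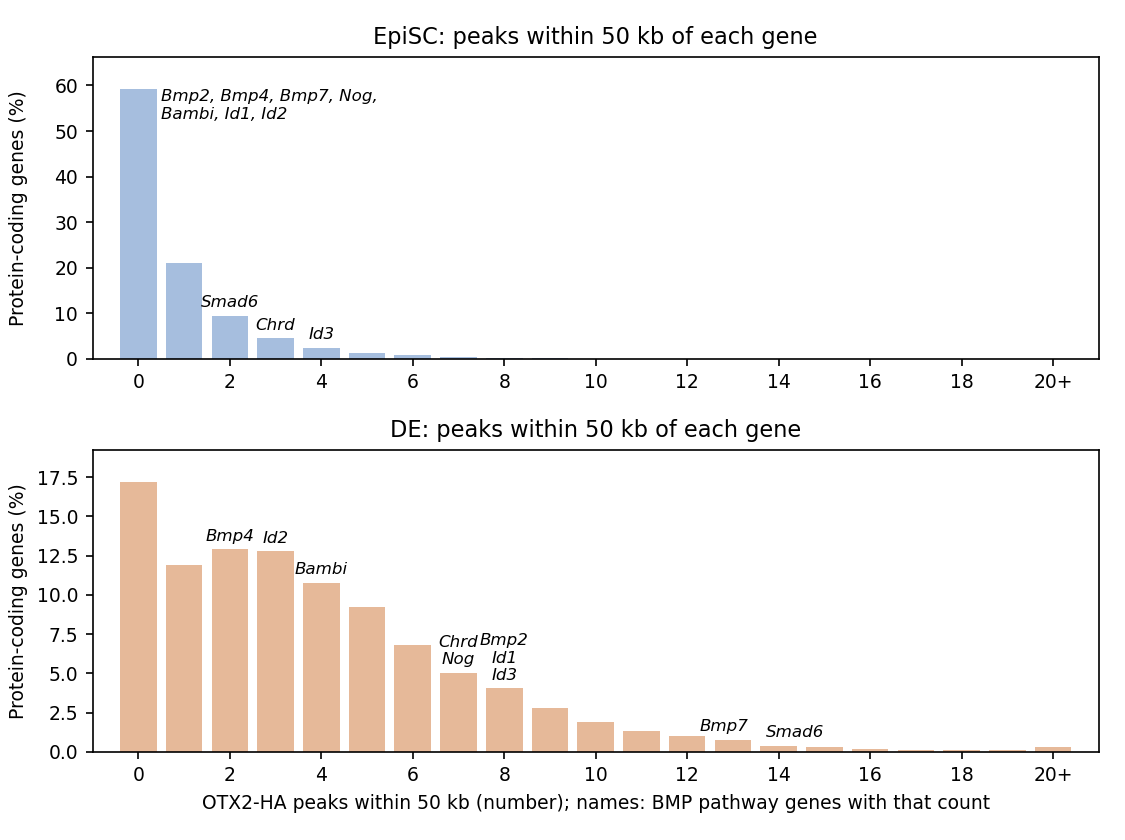
Share of protein-coding genes (y axis, %) with each number of OTX2-HA peaks within 50 kb (x axis; 20 or more combined) in EpiSC (top) and DE (bottom), with the names of the BMP pathway genes at their own counts. In EpiSC 7 of the 10 genes are at 0, where most genes lie, and in DE 7 of the 10 are above the upper quartile of 6 peaks.

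The ligand genes had no EpiSC peak in their windows. The nearest EpiSC peak was 671 kb from Bmp2, 370 kb from Bmp4 and 291 kb from Bmp7, distances reached or exceeded at 11.3%, 20.7% and 25.1% of protein-coding genes, for which the median was 84.8 kb. In DE the 3 genes had 23 peaks. None was shared with EpiSC, as the lack of EpiSC peaks in these windows fixes, and 88.3% of all DE peaks were likewise unshared. They differed in where these lay.

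Bmp7 (chromosome 2, 172868012 to 172940321), which encodes a ligand that often pairs with BMP2 or BMP4, carried DE peaks in the higher-coordinate part of its body. Of its 13 peaks 8 had their centre inside the gene, all from 172911790 onwards, and 9 named it as nearest gene in the authors' deposited table. A run of 6 peaks, each less than 5 kb from the next, spanned 8.56 kb from 172932278 to 172940837, the last of them 0.437 kb past the higher-coordinate end of the gene. The widest were 403 bp (172938524 to 172938926) and 385 bp (172937463 to 172937847). As many as 4 peak centres fell within 5 kb, a density reached at 2.72% of protein-coding genes. Some of these lay less than 500 bp apart, and joining such peaks left Bmp7 with 11 DE peaks. The density was not recomputed for joined peaks. The other 4 of the 13 peaks lay 1.44 to 34.6 kb from the lower-coordinate end, were 71 to 144 bp wide and had been assigned to Gm22773.

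Bmp2 (chromosome 2, 133552159 to 133562896), the ligand most similar to BMP4, had 8 DE peaks, all outside the gene. The closest 2, at 133547025 to 133547151 and 133547262 to 133547370, lay 5.07 and 4.84 kb from its lower-coordinate end and were the peaks assigned to Bmp2 in the authors' deposited table. On the other side 1 peak of 291 bp lay 8.08 kb away and was assigned to the miRNA gene Mir3090. Farther out, a run of 4 peaks of 137 to 294 bp from 133586481 to 133593345 was assigned to the small RNA gene Gm25258. Most of the DE peaks around Bmp2 thus had a non-coding gene as their nearest annotation.

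Bmp4 (chromosome 14, 46383525 to 46390669), the ligand made next to the epiblast in the embryo, was the member with the sparsest binding. It had 2 narrow DE peaks, of 72 and 108 bp, at 44.8 and 46.2 kb, both assigned to Gm15221, and no peak in either list named Bmp4 as nearest gene. At least as many DE peaks were found at 70.9% of protein-coding genes. With windows of 10 or 20 kb Bmp4 had no DE peak.

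**Figure D3:**
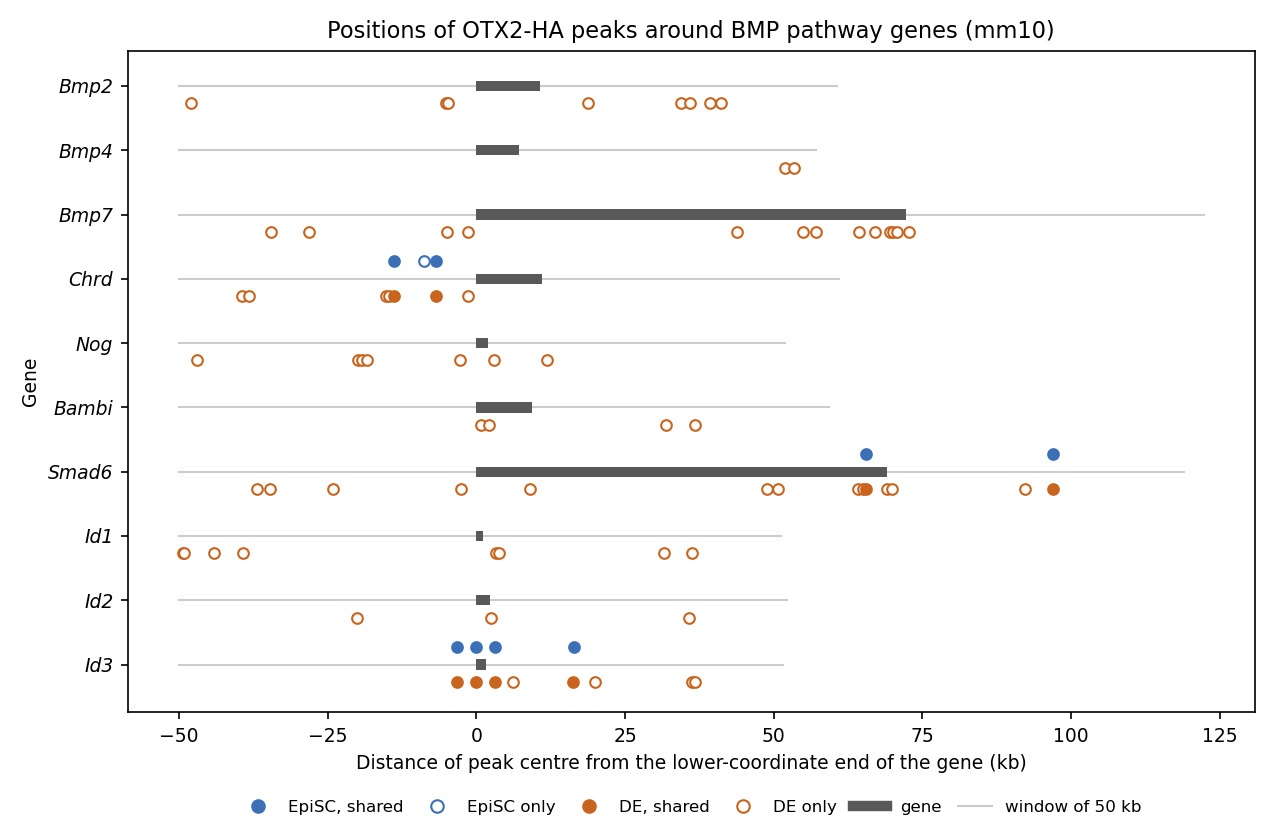
Positions of OTX2-HA peak centres around the 10 genes (rows), as distance in kb from the lower-coordinate end of the gene (x axis); blue points above the line are EpiSC peaks, orange points below it DE peaks, filled where they overlap a peak of the other state. Filled points stand at Chrd, Smad6 and Id3, and the DE peaks of Bmp7 gather at the higher-coordinate end of the gene.

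The secreted antagonist genes both had 7 DE peaks and differed in EpiSC, where Chrd had 3 peaks and Nog none. Nog (chromosome 11, 89300638 to 89302559) encodes noggin, which blocks the receptor-binding sites of BMP ligands. Its nearest EpiSC peak was 113 kb away. In DE a run of 3 peaks spanned 1.69 kb from 89280608 to 89282295, about 18.4 to 19.9 kb from the lower-coordinate end, and included the widest peak of the whole set, 444 bp at 89281211 to 89281654. The peaks closest to the gene were 1 of 156 bp, 1.05 kb past the higher-coordinate end, and 1 of 90 bp, 2.82 kb from the lower-coordinate end. Nog was the nearest gene of 5 of its 7 DE peaks in the authors' deposited table.

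Chrd (chromosome 16, 20731425 to 20742384, plus strand) encodes chordin, which holds BMP ligands away from their receptors until a protease cuts it. All of its EpiSC and DE peaks lay before the gene, in a stretch dense with other genes, and none named Chrd as nearest. The 3 EpiSC peaks were at 20717560 to 20717692, 20722511 to 20722704 and 20724611 to 20724727, assigned to Polr2h, Polr2h and Thpo. The first overlapped the promoter window of Polr2h, which encodes an RNA polymerase subunit, and the last lay inside Thpo, the gene of thrombopoietin. Both overlapped a DE peak, while the middle one, 194 bp wide and 8.82 kb from Chrd, was the single EpiSC peak of the set without a DE counterpart. The DE peak closest to Chrd was 185 bp wide, 1.35 kb before the gene and inside Thpo, and had no EpiSC counterpart. Within 10 kb Chrd had 2 peaks in each state.

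Among the genes of inhibitors acting at or inside the cell, Bambi (chromosome 18, 3507011 to 3516404) had no EpiSC peak within 50 kb, the nearest being 324 kb away. Its 4 DE peaks comprised 2 inside the gene, 252 bp wide at 3507709 to 3507960 and 250 bp wide at 3509071 to 3509320, and 2 of 86 and 79 bp at 22.6 and 27.4 kb. All 4, and 1 more of 279 bp at 77.2 kb, named Bambi as nearest gene in the authors' deposited table. A count of 4 was unremarkable, being reached at 45.2% of protein-coding genes.

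Smad6 (chromosome 9, 63953076 to 64022085, minus strand) had the most DE peaks of the set, and EpiSC peaks at 2 of the same places. The EpiSC peaks were 169 bp wide inside the gene, at 64018595 to 64018763, and 234 bp wide at 64050032 to 64050265, 28.1 kb before it in the non-coding gene 1110036E04Rik. The DE counterparts were 197 and 361 bp wide and covered each EpiSC peak completely. The other 12 DE peaks had no EpiSC counterpart. Of the 14 DE peaks, 6 had their centre inside the gene and 12 named Smad6 as nearest in the authors' deposited table. A run of 5 spanned 6.03 kb around the transcript start, from 64017070 to 64023098, and held the shared internal peak and the 73 bp promoter peak shown above.

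The target genes encode ID proteins, which bind basic helix-loop-helix factors and keep them off DNA. Their binding differed from gene to gene. Id3 (chromosome 4, 136143822 to 136145392, plus strand) had the most EpiSC peaks of the set, a count reached at 5.75% of protein-coding genes, and all 4 overlapped a DE peak. Their centres lay 3.29 kb and 118.5 bp before the gene and 1.57 and 14.9 kb after it, and the last of these was assigned to E2f2, a cell cycle factor gene. The promoter peak was 174 bp wide in EpiSC (136143617 to 136143790) and 243 bp in DE (136143616 to 136143858). The peak 3.29 kb before the gene was 85 bp wide in EpiSC and 300 bp in DE, the largest difference between paired peaks. The 4 DE peaks without a counterpart lay 4.56 to 35.3 kb after the gene. The closest was assigned to Id3, and those at 18.3, 34.7 and 35.3 kb to E2f2. The peaks at 34.7 and 35.3 kb lay inside E2f2, and the farther overlapped its promoter window.

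Id2 (chromosome 12, 25093799 to 25096092, minus strand) had no EpiSC peak within 50 kb, the nearest being 384 kb away. It had a 211 bp DE peak at its transcript start, at 25096087 to 25096297, and 2 more of 229 and 141 bp at 20.0 and 33.5 kb. The authors' deposited table assigned these 3 and 2 farther peaks, at 71.7 and 208 kb, to Id2. Its count of 3 within 50 kb equalled the median of protein-coding genes, and 58% of them had as many.

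Id1 (chromosome 2, 152736251 to 152737410) had no peak in EpiSC and 8 in DE. A pair of DE peaks named it as nearest gene, 164 bp wide at 152739417 to 152739580 and 208 bp wide at 152739882 to 152740089, and lay 2.09 and 2.58 kb past its higher-coordinate end. The remaining 6 were 64 to 127 bp wide, lay 30.4 to 49.4 kb away inside the genes H13 and Bcl2l1, and were assigned to Mcts2, H13, Gm26841 or Gm23802. The 50 kb limit fell close to peaks at Id1 and Bmp2. The farthest DE peaks inside it were at 49.4 and 48.0 kb and the closest outside it at 51.9 kb for each gene. In EpiSC the farthest peak inside the limit was at 28.1 kb (Smad6) and the closest outside at 54.5 kb (Id3).

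The authors' assignment to the nearest gene gave a narrower view. It named 8 of the 10 genes in DE, with 44 peaks, and 2 in EpiSC, Id3 with 3 peaks and Smad6 with 1. The shares of protein-coding genes named at least once were 50.4% and 15.3%. Chrd and Bmp4 were named by no peak.

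Sharing was close to that of the whole lists. Of the 9 EpiSC peaks at the BMP genes 8 shared 1 bp or more with a DE peak (88.9%, exact Clopper-Pearson 95% interval 51.8 to 99.7%), against 78.8% of all EpiSC peaks. Of the 74 DE peaks 8 overlapped an EpiSC peak (10.8%, 4.78 to 20.2%), against 11.7% of all DE peaks. The 8 shared sites were 4 at Id3, 2 at Smad6 and 2 at Chrd. With the 6319 widest DE peaks alone, 2 of the 9 EpiSC peaks (22.2%) were shared, against 30.7% of all EpiSC peaks.

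Peak width is the one measure of size in these lists. The median was 169 bp for the 9 EpiSC peaks (range 85 to 234 bp) and 147 bp for the 74 DE peaks (64 to 444 bp), against 141 and 138 bp in the whole lists. Within the 8 shared pairs the DE peak was the wider in 7, against 78.7% of the 4980 shared EpiSC peaks in all, with a median difference of 72 bp here and 63 bp over all. The exception was the peak 1.57 kb after Id3, 219 bp wide in EpiSC and 125 bp in DE. Centres of paired peaks lay 4.5 to 128 bp apart. Among DE peaks at the BMP genes, the median width was 225.5 bp for the 8 shared and 137 bp for the 66 DE-only peaks, where the whole DE list had 224 and 129 bp.

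**Figure D4:**
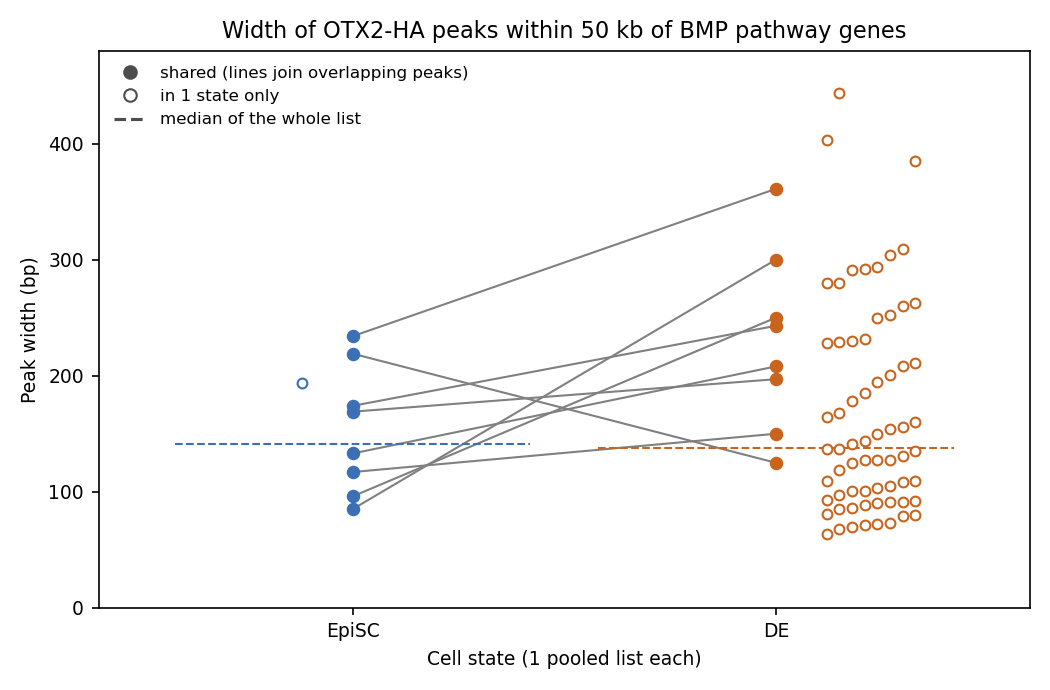
Width in bp (y axis) of the OTX2-HA peaks within 50 kb of the 10 genes in EpiSC (9 peaks) and DE (74 peaks); filled points are shared peaks, joined by lines to their counterpart, open points are peaks of 1 state, and dashed lines are the medians of the whole lists (141 and 138 bp). Of the 8 lines 7 rise from EpiSC to DE and 1, at Id3, falls from 219 to 125 bp.

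Position relative to the genes varied. Of the 74 DE peaks 16 had their centre inside the member gene, and 37 lay more than 10 kb away. Those inside were 8 at Bmp7 and 6 at Smad6, both long genes, and 2 at Bambi. A peak centre inside the gene or within 1 kb of it was found at 5 of the 10 genes in DE (Bmp7, Bambi, Smad6, Id2 and Id3), against 50.8% of protein-coding genes, and at 2 in EpiSC (Smad6 and Id3), against 16.9%. Both counts were near these shares. The peaks within 1 kb of a gene end made up 8.11% of the 74. No share over the whole DE list was computed for peaks inside a gene, beyond 10 kb or near a gene end. At 5 of the 10 genes, Bmp2, Bmp7, Chrd, Nog and Smad6, at least 3 DE peak centres fell within 5 kb of each other, as they did at 11.8% of protein-coding genes. Some DE peaks of these genes lay less than 500 bp apart. Joining such peaks left 7 at Bmp2, 11 at Bmp7, 6 each at Chrd and Nog and 13 at Smad6. The density within 5 kb was not recomputed for joined peaks.

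The control lists were short and had no peak near these genes. None of the 9 EpiSC or 74 DE peaks overlapped a peak of the 3 IgG lists (202, 149 and 200 peaks) or of the parental HA list (14 peaks). Over the whole lists such overlap was also rare, at 0.791% of EpiSC and 0.0819% of DE peaks, so a count of 0 in sets of this size shows nothing particular to these genes. It allows a share of up to 4.05% of the DE and 33.3% of the EpiSC peaks. No control peak lay within 50 kb of any of the 10 genes, the closest being an IgG peak 501 kb from Bambi. The IgG list of replicate 2 is contained in that of replicate 3, so those lists are not independent. The IgG lists are from EpiSCs.

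The wider pathway was examined with 47 further genes, from ligands and receptors to targets. Of these 42 (89.4%) had a DE peak and 16 (34%) an EpiSC peak within 50 kb, near the shares of 82.8% and 40.8% for all protein-coding genes, and 40 (85.1%) met the rule of at least 2 times as many peaks in DE, against 73.8%. Their median was 4 DE peaks. All 3 receptor SMAD genes had DE peaks and no EpiSC peak, as did 42.3% of protein-coding genes and 51.1% of those with a DE peak. Of these 3, Smad5 had 13, Smad1 9 and Smad9 1. Smad4, the common partner, had no peak in either state. All 7 receptor genes had DE peaks, with 8 at Acvrl1, and Bmpr1b had 7 in DE and 2 in EpiSC.

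Other genes with many DE peaks were Bmper, which encodes a BMP-binding regulator, with 11 and none in EpiSC, and Msx1, a homeobox target of BMP signalling, with 10 and 1. Peaks in EpiSC were most frequent at Fstl3 and Rgma with 4 each and at Eng with 3, where DE had 7, 8 and 6. FSTL3 binds activins, and RGMA and endoglin are co-receptors. Cer1, encoding the anterior endoderm antagonist Cerberus, had 2 EpiSC peaks, both shared, and 6 in DE. Among all 10 other secreted antagonist genes 7 had a DE peak and 5 an EpiSC peak, near the shares of 82.8% and 40.8% for all protein-coding genes. None of the 47 genes had more EpiSC than DE peaks.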

How the data were processed

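CUT&RUN peak positions of HA-tagged OTX2 were taken as deposited by the authors: 1 list per state for 2 HA samples, with chromosome, start, end and the nearest gene's symbol, and no score or depth. The tables hold the same intervals as the lists merged over 50 bp, per the file names (42711 of 42711 in DE, 6319 of 6319 in EpiSC). The label of the second EpiSC HA sample and that of the tagged DE IgG sample also name the merged DE list. That list was taken as DE HA. Per the submitters' processing notes, Bowtie2 2.3.5.1, SAMtools 1.14, Picard 2.26.10, bedtools 2.30, MACS2 2.2.6 and mm10 were used. The control behind the peak calls and the thresholds are not given in the sources used here. Not analysed here were the tables' marks for differentially expressed genes, IgG data from DE and any signal track.

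Gene positions came from RefSeq (GRCm38.p6). Its table gives no strand, so strand was stated only where the promoter table gives it. Peaks were assigned by centre within 50 kb and called shared at an overlap of 1 bp or more. The functions were tested on simulated peaks, with Python 3.11.15, pandas 2.3.3 and scipy 1.17.1. No test between states was possible, with 1 pooled list each. Exact intervals cover counting error only. All 10 members are named, and of the other pathway genes up to 5 each with the most DE peaks and the most EpiSC peaks, ties in alphabetical order, plus any with more EpiSC than DE peaks; Smad4, Smad9 and those peaks on which a count turned were named after their values were seen. The members, the wider gene list and the motifs were chosen with earlier results of these data known.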

Additional observations from a re-analysis of the deposited data

How the results depend on the processing

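No paired analysis was possible because each state has 1 pooled HA list, which also means that leaving out an HA replicate was not run. Of 88 values under alternatives, 19 could not move by construction: those without peaks overlapping a control or without 1 IgG list, since no peak of the set overlapped a control, and the EpiSC counts and widths under the 2 alternatives that drop narrow peaks. Of the other 69, 56 stayed within 1.5 times (counts) or within the interval of the reported value, and 13 did not. Windows of 10 and 20 kb gave 37 and 45 DE peaks instead of 74, and 100 kb gave 16 EpiSC peaks instead of 9. With the authors' nearest gene there were 4 EpiSC peaks, of which 100% were shared, and 44 DE peaks. With the 6319 widest DE peaks, 22.2% of EpiSC peaks were shared, 5 genes had a DE peak, 4 met the rule of 2 times as many, and 14 DE peaks with a median width of 297 bp gave a ratio of 1.56. That alternative changes list length and width together. The share of DE peaks near a gene end was 33.8% within 5 kb. Leaving out each IgG replicate in turn gave 0 to 0 overlaps. Depth limits the comparison of peak numbers, because the lists do not give it.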

Other observations

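Beyond the 50 kb window, between 50 and 100 kb from a gene, 7 more EpiSC peaks lay around the set, and all 7 overlapped a DE peak, as did 78.8% of all EpiSC peaks. Of these, 3 were at Id1, at 67.3, 93.3 and 94.0 kb on the higher-coordinate side, and were assigned to Bcl2l1, a regulator of apoptosis. The first of them, 433 bp wide at 152804445 to 152804877 on chromosome 2, was wider than any EpiSC peak within 50 kb of the 10 genes. Around Id3 another 3 lay at 54.5, 60.8 and 90.3 kb, assigned to Gm13009, Asap3 and Rpl11, and 1 lay at 89.0 kb from Chrd, assigned to Psmd2. In DE 35 peaks lay in this outer zone, 7 of them shared, against 11.7% of all DE peaks. Within 100 kb Id1 and Id3 had 17 DE peaks each. Bmp2 had 8 of the 35, which brought it to 16 within 100 kb. None of the Bmp2 peaks could be shared, since the nearest EpiSC peak was 671 kb from that gene.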
